A study of Homo sapiens with 18 samples.

Results

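The enzymes described here make serine from a glycolytic intermediate and pass its side-chain carbon to folate. They are PHGDH, PSAT1 and PSPH of serine synthesis and SHMT1, SHMT2, MTHFD1, MTHFD2, MTHFD1L, MTHFD2L and ALDH1L2 of folate one-carbon metabolism. They were taken from the count table by gene symbol, and all 10 were found among 62749 genes. All 10 also passed the filter on low counts that left 19252 genes for testing, PHGDH through the WT libraries alone.

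The cells were MDA-MB-231, an established line of triple-negative breast cancer, and messenger RNA was read in 18 libraries, 3 in each of 6 groups. IMPDH2, inosine monophosphate dehydrogenase, limits the rate at which guanine nucleotides are made, and the series title places its nuclear form in the DNA damage response through PARP1. The groups were unedited cells without guanosine (WT), IMPDH2 knockout cells without guanosine (KO), the knockout grown with 400 µM guanosine, and the knockout given back IMPDH2 without guanosine in 3 forms. The cell line field of the labels counts up from MDA-MB-231 by sample, as do some genotype fields, so the line was taken from the growth protocol and the groups from the titles. The forms are titled KO-WT, KO-NLS and KO-NES in the labels, and are called the unlocalised, the nuclear and the cytosolic form here. All 5 knockout-derived groups thus carry the knockout that WT lacks. The labels do not say whether the knockout is 1 clone, what drives the returned gene, or whether the 3 libraries of a group are separate cultures. Every p therefore measures the spread between these samples only, and the loss of IMPDH2 and any other difference between the knockout line and WT cannot be told apart.

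Serine synthesis runs in the cytosol in a chain of steps. PHGDH oxidises 3-phosphoglycerate, PSAT1 transfers an amino group from glutamate, and PSPH removes the phosphate to release serine. Serine hydroxymethyltransferase then splits serine into glycine and a one-carbon unit on tetrahydrofolate, through SHMT1 in the cytosol and SHMT2 in mitochondria. In mitochondria MTHFD2 or MTHFD2L oxidises that unit, MTHFD1L then releases it as formate, and ALDH1L2 can instead oxidise it to carbon dioxide. MTHFD1 takes up formate in the cytosol. Cytosolic one-carbon units enter thymidylate and the purine ring, which is built upstream of the step of IMPDH2.

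Libraries held 45865079 to 63276484 estimated counts. IMPDH2 itself lay at 318 to 319 CPM (counts per 1e6, scaled by the trimmed mean of M values, TMM) in WT, 41.2 to 42.3 in KO and 22.0 to 22.2 with guanosine. It lay at 522 to 543 with unlocalised, 283 to 305 with nuclear and 371 to 395 with cytosolic IMPDH2. The 6 knockout libraries without a returned gene were thus below WT in IMPDH2 RNA, which cannot tell the nuclear from the cytosolic form or show guanosine. Of 4 mesenchymal markers of this line VIM and CD44 stood at 620.4 CPM or more in all libraries. In KO, VIM, CD44, AXL and CAV1 stood at 71.6%, 74.4%, 52.9% and 46.8% of their WT means. The 4 summed to 6641 to 6948 CPM in WT, 4456 to 4815 in KO and 4926 to 6272 in the other groups. Of 8 luminal or epithelial markers ESR1, PGR and CDH1 stayed below 0.5 CPM, while the keratins KRT8 and KRT18 had 332 and 313 CPM in WT and stood at 41.6% and 36.1% of that in KO. The summed level of these 8 was 887 to 905 CPM in WT, 396 to 407 in KO and 454 to 585 in the other groups. Blood and endothelial markers, 6 of 8 below 0.5 CPM, summed to 12.7 to 14.5 CPM in WT and 5.84 to 7.20 in KO. Of 4 fibroblast markers 2 were below 0.5 CPM, while COL1A1 and PDGFRB had 12.2 and 4.83 CPM in WT and stood at 32.0% and 26.8% of that in KO. Transcripts of the mitochondrial genome took 5.15% to 5.21% of counts in WT and 7.25% to 8.21% in the 15 knockout-derived libraries. The part of these markers and of this share in the results was not tested.

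Of the 10 enzymes 8 fell in KO against WT, 1 rose and 1 was not called. PHGDH, one of the 8, passed the filter through WT alone and so had to differ. A call means that edgeR's quasi-likelihood test gave an adjusted p (Benjamini-Hochberg) under 0.05. In the same comparison 36.8% of all tested genes fell, 35.9% rose and 72.7% changed either way. The median log2 fold change was -0.76 over the enzymes and 0.01 over all tested genes. With library totals in place of TMM, 61.5% of all calls were rises instead of 49.4%, and the same 8 enzymes were called lower. SHMT1 and PSAT1 fell most after PHGDH, and MTHFD2L was the member that rose. In bulk RNA fewer cells that make a transcript and less of it per cell cannot be told apart.

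**Figure D1:**
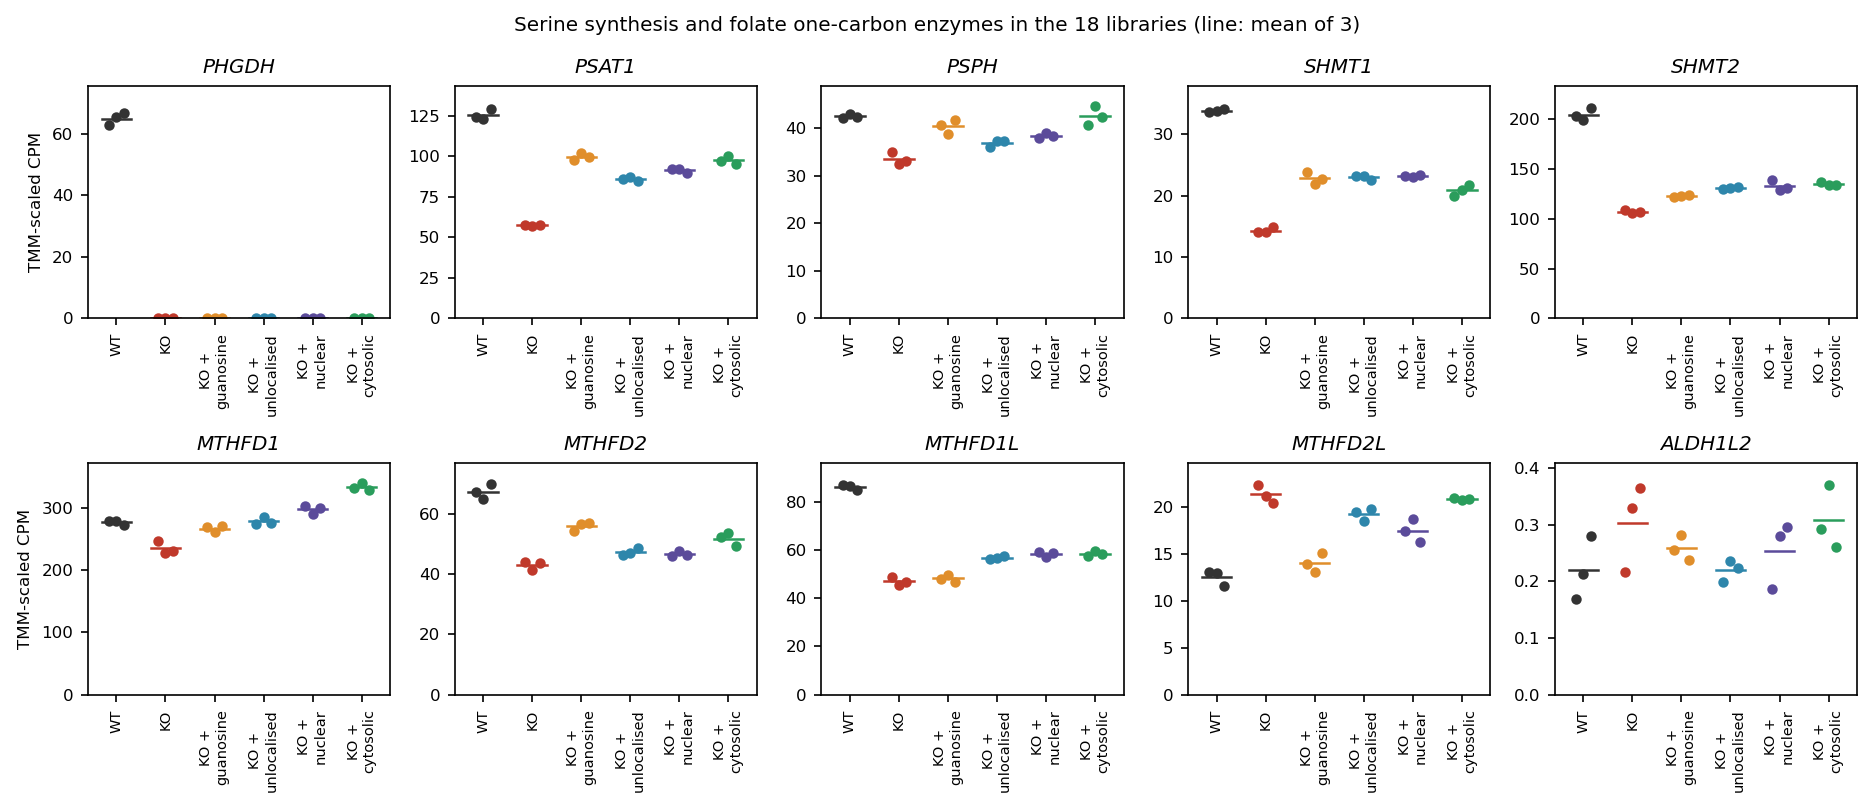
TMM-scaled CPM (y axis, from 0, a scale for each gene) of the 10 enzymes in the 18 libraries, by group; points are libraries and lines are means of 3. PHGDH drops to 0 or nearly 0 in all knockout-derived groups, 7 enzymes fall in KO and lie higher in most other knockout-derived groups, and MTHFD2L runs the other way.

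PHGDH (ENSG00000092621.13, plus strand of chromosome 1, 119648411 to 119744226 in GRCh38), the first enzyme of serine synthesis, was the extreme case. It had 62.8, 65.5 and 66.7 CPM in the 3 WT libraries, from 3340, 3088 and 3338 estimated counts. KO, KO with guanosine, the nuclear form and the cytosolic form had 0 counts in all 12 of their libraries, and the unlocalised form had 3, 0 and 1 counts. WT and the knockout-derived libraries were thus far apart, and neither guanosine nor a returned form brought PHGDH back to a WT-like level. Against a floor of 3 counts over a group, PHGDH was at least 3753-fold lower in KO than in WT, given without a test because WT alone carried it through the filter. With the same floor it was at least 3178-fold lower with guanosine, 3578-fold with the nuclear and 3538-fold with the cytosolic form. With the unlocalised form the WT level was 2668 times as high, with a 95% exact interval of 1042 to 9795 that covers counting error only. Its fitted log2 difference from WT, -11.25, was -12.44 without unlocalised replicate 1 and -10.69 without unlocalised replicate 2. In WT 82.4% ± 9.97 (SD, n = 3) of PHGDH counts lay on protein-coding transcripts, mostly PHGDH-208 with 77.1% of the gene's counts.

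The genes next to PHGDH were read in the same libraries to see how far the loss reached. ZNF697, a zinc finger gene on the opposite strand 0.6 kb before the outermost start of PHGDH in GENCODE 29, had 35.7 ± 0.964 CPM in WT and 33.8 ± 0.986 in KO and was not called (log2 fold change -0.08 ± 0.041 SE, adjusted p = 0.104). REG4, ADAM30 and HSD3B1 had 0 counts in all libraries, WT included. NOTCH2, a receptor 167.3 kb past the end, had 339.8 ± 3.39 CPM in WT and 185 ± 10.7 in KO, a 1.84-fold fall (adjusted p = 2.71e-12). SEC22B, 406.7 kb past the end, fell 1.48-fold, and WARS2, the farthest neighbour before the start, fell 1.14-fold. Neighbours that were expressed in WT thus remained well above 0 in every knockout-derived library, where ZNF697 lay between 22.9 and 34.9 CPM and NOTCH2 between 166 and 224. HAO2 and HSD3B2 had 5 and 2 counts over all libraries. Distances are from the outermost ends of PHGDH, and the RefSeq promoter table puts a start of PHGDH inside this span, just after position 119711933.

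**Figure D2:**
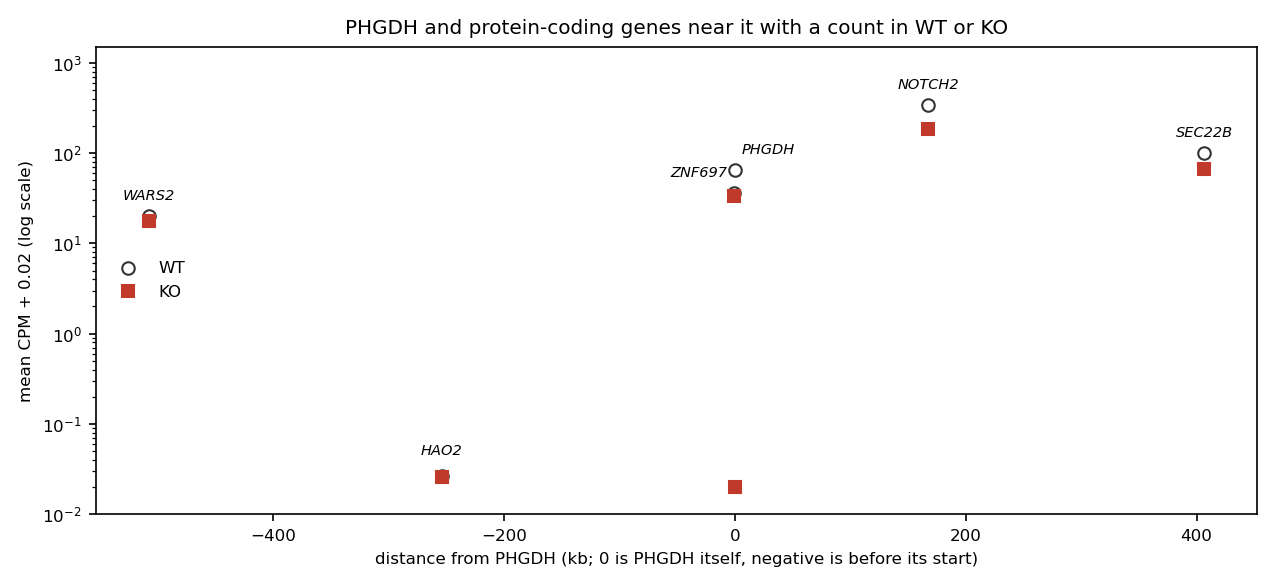
Mean TMM-scaled CPM plus 0.02 (y axis, log scale) of PHGDH and protein-coding genes near it that had a count in WT or KO, against distance from PHGDH (x axis, kb). Open circles are WT and filled squares are KO, each a mean of 3 libraries; PHGDH alone goes from 65.0 CPM to 0, while ZNF697, WARS2, NOTCH2 and SEC22B keep at least 17.6 CPM in KO.

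Other genes share the PHGDH pattern over the 6 groups. By the root mean square difference of centred group mean log2 CPM, the nearest were MAGEA3 (0.515), ARHGEF10 (0.639) and MAGEA12 (0.705). MAGEA3, a cancer testis antigen gene, had 34.7 CPM in WT and at most 0.0250 in a knockout-derived group. ARHGEF10 had 23.5 CPM in WT and at most 0.0328 in any other group. MAGEA12 had 17.2 CPM in WT and 0 in the other 5 groups, and reads of MAGEA genes are uncertain because near-identical copies exist.

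PSAT1 (ENSG00000135069.14, plus strand of chromosome 9, 78297143 to 78330093), the second enzyme, fell and then recovered in part. WT libraries had 124, 123 and 129 CPM and KO libraries 57.8, 56.7 and 57.8. With guanosine the values were 97.4, 102 and 99.2, with the unlocalised form 85.7, 87.0 and 84.7, with the nuclear form 91.9, 92.3 and 89.7, and with the cytosolic form 97.0, 99.9 and 95.0. KO was lowest and WT highest without any overlap between a group and KO or WT, and the other 4 groups stood at 68.4% to 79.5% of the WT mean. The fall in KO was 2.18-fold (log2 fold change -1.13 ± 0.027 SE, adjusted p = 9.75e-17, edgeR). The rise over KO was 1.74-fold with guanosine, 1.49-fold with unlocalised, 1.59-fold with nuclear and 1.70-fold with cytosolic IMPDH2. The guanosine group exceeded the unlocalised form by 0.22 ± 0.027 on the log2 scale (adjusted p = 4.21e-06, edgeR). PSAT1-202, a protein-coding transcript, carried 98.8% of the gene's counts, and the 4 PSAT1 pseudogenes held at most 21 counts each against 88637.

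The patterns closest to PSAT1 over the 6 groups were those of PCLAF (0.0336), PRSS12 (0.0446) and FANCD2 (0.0449). PCLAF, a PCNA-binding protein, had 66.2 CPM in WT, 29.2 in KO and 53.3 with guanosine. FANCD2, a Fanconi anaemia repair protein, had 52.6, 23.2 and 39.4 in the same groups. Of 10 proliferation genes 9 fell in KO, where 36.8% of all tested genes fell. All 10 rose over KO with guanosine and with each of the 3 forms, where 27.3%, 25.7%, 26.1% and 24.6% of all tested genes rose (guanosine, unlocalised, nuclear, cytosolic). PLK1, a mitotic kinase, fell 4.39-fold and CCNB1, cyclin B1, fell 2.89-fold in KO. The part of proliferation in the changes of the enzymes was not tested.

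The bases before a RefSeq start of PSAT1, MTHFD2 and MTHFD2L are shown because the first and second fell in KO while the third rose. They come from the RefSeq promoter table (GRCh38.p14), which holds 7 of the 10 enzymes. Each stretch stops before any exon of a coding transcript in GENCODE 29 that falls in its window. The MTHFD2L window shown lies inside the gene, which begins at 74114174, and another MTHFD2L window begins at 74123023. All stretches shown are on the plus strand and read 5′ to 3′, with capitals for CCAAT on either strand.
PSAT1, chr9:78296875-78297124: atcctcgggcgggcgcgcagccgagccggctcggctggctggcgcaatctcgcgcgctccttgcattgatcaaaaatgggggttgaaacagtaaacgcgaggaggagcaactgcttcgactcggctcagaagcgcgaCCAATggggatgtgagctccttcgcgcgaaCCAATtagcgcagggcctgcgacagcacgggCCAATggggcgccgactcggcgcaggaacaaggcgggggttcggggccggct
MTHFD2, chr2:74198365-74198561: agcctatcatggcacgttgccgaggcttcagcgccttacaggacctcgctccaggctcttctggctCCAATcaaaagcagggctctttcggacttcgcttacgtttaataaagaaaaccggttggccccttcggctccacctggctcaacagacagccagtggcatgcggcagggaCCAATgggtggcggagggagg
MTHFD2L, chr4:74157868-74158107: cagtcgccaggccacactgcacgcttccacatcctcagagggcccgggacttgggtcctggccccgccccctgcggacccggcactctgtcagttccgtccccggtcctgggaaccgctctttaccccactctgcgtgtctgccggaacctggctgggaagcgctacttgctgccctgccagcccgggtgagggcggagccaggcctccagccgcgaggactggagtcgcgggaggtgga
In the 250 bases before its start PSAT1 had 3 CCAAT matches, beginning 113, 83 and 52 bases before it, and MTHFD2 had 2, beginning 184 and 74 bases before it. At least 3 such matches occur in 2.93% of 35116 RefSeq promoters and at least 1 in 32.0%. Among these 7 enzymes 6 had a CCAAT match, and MTHFD2L had none in either of its windows. TGATGNAA, the core of the element that ATF4 binds, matched in 1 of the 7, MTHFD1L, against 3.14% of all promoters. CACGTG, an E-box, matched in MTHFD1 and MTHFD1L against 6.34%. These shares are of single promoter windows, while the 7 enzymes have 11 windows, 4 of them of MTHFD1L, so a count of enzymes and a share of windows are not on the same scale. A match of letters is a description of the sequence only.

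PSPH (ENSG00000146733.14, minus strand of chromosome 7, 56011051 to 56051604), the last enzyme of serine synthesis, moved less. It had 42.0, 43.0 and 42.3 CPM in WT and 34.9, 32.4 and 33.1 in KO. With guanosine it had 40.7, 38.8 and 41.6, with the unlocalised form 36.1, 37.3 and 37.2, with the nuclear form 37.8, 38.9 and 38.3, and with the cytosolic form 40.7, 44.6 and 42.4. The cytosolic form was at 100.3% of the WT mean and the unlocalised form at 86.9%. KO was 1.27-fold below WT (log2 fold change -0.34 ± 0.037 SE, adjusted p = 1.43e-07, edgeR), and PSPH rose over KO in all 4 other knockout-derived groups, by 0.14 to 0.35 on the log2 scale. The rise with the unlocalised form was 0.06 with library totals and lost its call (adjusted p = 0.195). With an offset for transcript length, PSPH was not called in any of the 8 comparisons (adjusted p = 0.0675 in KO against WT). The pseudogene PSPHP1 held 2393 counts against 37485 for PSPH, and reads of the pair are uncertain.

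The serine hydroxymethyltransferases both fell, the cytosolic one further. SHMT1 (ENSG00000176974.22, minus strand of chromosome 17, 18327860 to 18363563) had 33.6, 33.9 and 34.1 CPM in WT and 14.0, 14.0 and 14.9 in KO. It had 23.8, 21.9 and 22.8 with guanosine, 23.2, 23.3 and 22.5 with the unlocalised, 23.2, 23.1 and 23.4 with the nuclear, and 19.9, 21.0 and 21.7 with the cytosolic form. All 4 stood between KO and WT with no overlap with either. The fall in KO was 2.37-fold (log2 fold change -1.24 ± 0.039 SE, adjusted p = 3.84e-15, edgeR), and the rise over KO was 1.59-, 1.61-, 1.62- and 1.46-fold in the same order. The guanosine and unlocalised groups overlapped (difference -0.01 ± 0.039 on the log2 scale, adjusted p = 0.885).

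SHMT2 (ENSG00000182199.11, plus strand of chromosome 12, 57229327 to 57234935), the mitochondrial enzyme, had 203, 199.6 and 211 CPM in WT and 109, 106 and 107 in KO. It had 122, 123 and 124 with guanosine, 129.7, 131 and 132 with the unlocalised, 139, 129 and 131 with the nuclear, and 137, 134 and 134 with the cytosolic form. These 4 groups lay above every KO library but reached only 60.1% to 65.9% of WT. The fall in KO was 1.90-fold (adjusted p = 1.06e-15, edgeR) and the rises over KO were 1.15- to 1.25-fold. In TPM, a level scaled for transcript length, SHMT2 was 7.73 ± 0.207 times SHMT1 in WT and 9.19 ± 0.221 times in KO, with no overlap between these groups. The ratio was 7.34 with guanosine, and 7.19, 6.77 and 8.35 with unlocalised, nuclear and cytosolic IMPDH2.

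MTHFD2 (ENSG00000065911.13, plus strand of chromosome 2, 74198562 to 74217565), the mitochondrial dehydrogenase and cyclohydrolase known for high levels in tumours and embryos, had 67.2, 64.9 and 69.8 CPM in WT and 43.9, 41.3 and 43.5 in KO. It had 54.2, 56.4 and 56.9 with guanosine, 46.2, 46.9 and 48.6 with the unlocalised, 45.9, 47.6 and 46.3 with the nuclear, and 52.3, 53.5 and 49.4 with the cytosolic form. The guanosine group was the highest of the 4 and did not overlap another group. KO was 1.57-fold below WT (log2 fold change -0.65 ± 0.036 SE, adjusted p = 1.18e-11, edgeR). Guanosine raised MTHFD2 1.30-fold over KO and the cytosolic form 1.21-fold. The rises with the unlocalised and nuclear form (0.14 and 0.12 on the log2 scale) were lost with a length offset (adjusted p = 0.275 and 0.115) and with library totals in place of TMM (adjusted p = 0.181 and 0.406), and the nuclear one also without KO replicate 2 (adjusted p = 0.0638) or nuclear replicate 2 (adjusted p = 0.0618). The guanosine group exceeded the unlocalised form by 0.24 ± 0.036 on the log2 scale (adjusted p = 3.92e-05, edgeR). The most similar patterns were those of SNRPA1 (0.0181), a spliceosome protein, ARMC7 (0.0282) and AUNIP (0.0361).

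MTHFD2L (ENSG00000163738.19, plus strand of chromosome 4, 74114174 to 74303099), the paralog of MTHFD2 in mitochondria, moved in the opposite direction. It had 13.1, 13.0 and 11.6 CPM in WT and 22.4, 21.2 and 20.5 in KO. It had 13.9, 13.1 and 15.1 with guanosine, 19.5, 18.5 and 19.8 with the unlocalised, 17.5, 18.7 and 16.3 with the nuclear, and 21.0, 20.8 and 20.9 with the cytosolic form. The guanosine group lay at or just above WT, and the cytosolic form fell inside the range of KO. The rise in KO was 1.70-fold (log2 fold change 0.77 ± 0.061 SE, adjusted p = 2.12e-09, edgeR). Against KO, guanosine lowered it 1.52-fold (adjusted p = 1.16e-07) and the nuclear form 1.22-fold (adjusted p = 5.23e-04). The fall with the unlocalised form (1.11-fold, adjusted p = 0.0471) was lost with DESeq2 (adjusted p = 0.0752) and without KO replicate 1 or 2 or any of the unlocalised replicates (adjusted p = 0.0514 to 0.213). With the cytosolic form MTHFD2L was not called (log2 fold change -0.03 ± 0.059 SE, adjusted p = 0.709).

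Most MTHFD2L counts did not lie on coding transcripts. MTHFD2L-208, which has no defined coding sequence, held 47.5% of them, the retained-intron transcripts MTHFD2L-214 and MTHFD2L-211 held 16.4% and 13.3%, and the protein-coding MTHFD2L-203 held 10.6%. MTHFD2L-208 had 4.75 ± 0.598 CPM in WT, 11.2 ± 0.684 in KO and 6.32 ± 0.545 with guanosine. The coding transcript had 0.340 ± 0.589 CPM in WT (0 to 1.02), 2.20 ± 0.176 in KO (2.03 to 2.39) and 0.546 ± 0.489 with guanosine (0 to 0.942). It had 2.88 ± 0.103, 2.16 ± 0.451 and 2.91 ± 0.406 with unlocalised, nuclear and cytosolic IMPDH2. WT and the guanosine group were thus low in the coding transcript and the other 4 groups higher, without overlap. These transcript levels were not tested, and Salmon's division of reads among transcripts adds error that the SD shows only in part. The TPM ratio of MTHFD2 to MTHFD2L was 3.36 ± 0.186 in WT, 1.29 ± 0.0415 in KO and 2.47 ± 0.311 with guanosine. It was 1.52 ± 0.0628, 1.75 ± 0.0749 and 1.59 ± 0.100 with the unlocalised, nuclear and cytosolic form.

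**Figure D3:**
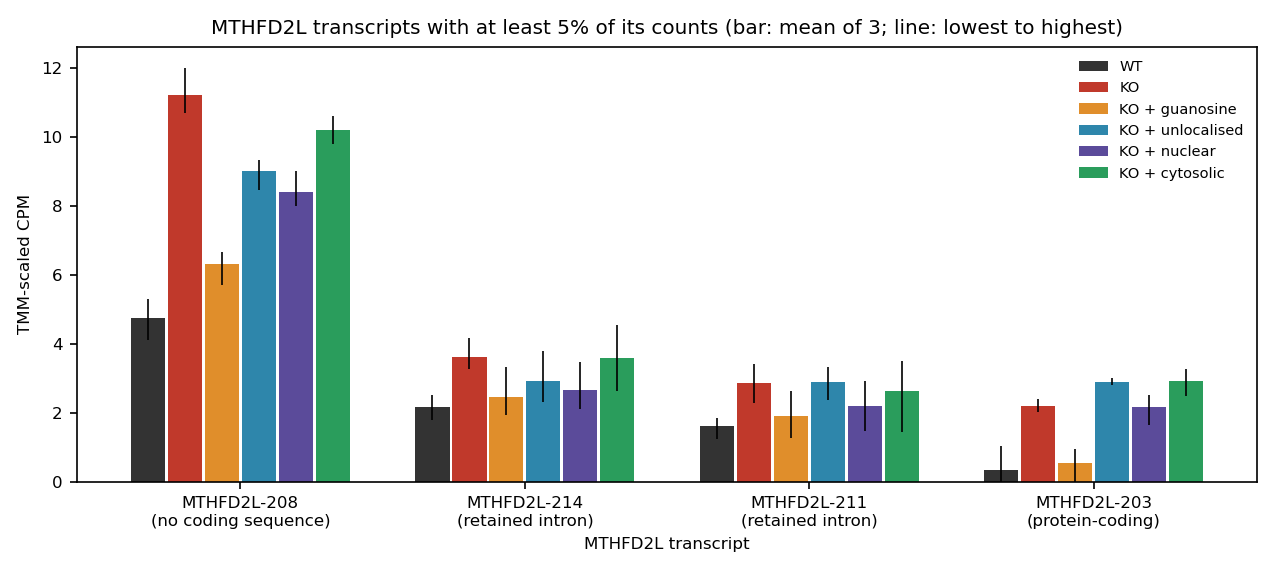
TMM-scaled CPM (y axis, from 0) of the 4 MTHFD2L transcripts with at least 5% of the gene's counts, by group; bars are means of 3 libraries and lines run from the lowest to the highest. MTHFD2L-208 has 4.75 CPM in WT and 11.2 in KO, and the coding MTHFD2L-203 has 0.340 and 2.20.

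MTHFD1L (ENSG00000120254.16, plus strand of chromosome 6, 150865549 to 151101887), which releases formate in mitochondria, had 87.0, 86.5 and 85.0 CPM in WT and 48.8, 45.3 and 46.9 in KO. It had 48.1, 49.8 and 46.8 with guanosine, 56.2, 56.8 and 57.3 with the unlocalised, 59.2, 57.2 and 58.9 with the nuclear, and 57.6, 59.4 and 58.3 with the cytosolic form. The guanosine group overlapped KO, and the 3 IMPDH2 forms lay above it. The fall in KO was 1.83-fold (log2 fold change -0.87 ± 0.029 SE, adjusted p = 8.94e-15, edgeR). Guanosine gave no call against KO (log2 fold change 0.04 ± 0.030 SE, adjusted p = 0.309), and that difference was -0.03 with library totals. The unlocalised form raised it 1.21-fold over KO and the nuclear and cytosolic forms 1.24-fold. With a length offset these 3 rises were 0.56, 0.52 and 0.64 on the log2 scale instead of 0.27, 0.31 and 0.32. The guanosine group was below the unlocalised form by a log2 difference of -0.23 ± 0.030 (adjusted p = 6.88e-06, edgeR), so the 2 treatments differed in MTHFD1L.

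MTHFD1 (ENSG00000100714.18, plus strand of chromosome 14, 64388031 to 64463457), the cytosolic enzyme that activates formate and interconverts the one-carbon folates, had 279, 278 and 272 CPM in WT and 246, 227 and 231 in KO. It had 268, 260.4 and 270.1 with guanosine, 273, 285 and 275 with the unlocalised, 302, 290.2 and 299 with the nuclear, and 332, 339 and 328 with the cytosolic form. In these gene sums all 3 cytosolic-form libraries were above every other library, WT included. On protein-coding transcripts alone MTHFD1 had 176 ± 21.1 CPM (SD) in WT and 176 ± 23.1 with the cytosolic form. Those transcripts held 63.6% and 52.8% of its counts in the same groups, and transcript levels were not tested. The fall in KO was 1.18-fold (log2 fold change -0.24 ± 0.029 SE, adjusted p = 6.58e-07, edgeR) and only -0.08 on the log2 scale with library totals (adjusted p = 0.0181). MTHFD1 rose over KO with guanosine (1.14-fold) and with unlocalised (1.19-fold), nuclear (1.27-fold) and cytosolic IMPDH2 (1.42-fold, log2 fold change 0.51 ± 0.029 SE, adjusted p = 1.20e-10). With the unlocalised form its level did not differ from WT by the test (log2 fold change 0.01 ± 0.029 SE, adjusted p = 0.845), though it was called higher by 0.09 with library totals (adjusted p = 0.00963).

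ALDH1L2 (ENSG00000136010.14, minus strand of chromosome 12, 105019784 to 105084577), the mitochondrial formyltetrahydrofolate dehydrogenase, was close to absent. Its 18 values ran from 0.169 to 0.369 CPM, from 33 to 53 counts per group, and the groups overlapped in 7 of the 8 comparisons. It was not called in any of the 8 comparisons (log2 fold change in KO against WT 0.46 ± 0.299 SE, adjusted p = 0.173, edgeR), and at this depth changes of that size could not be detected. With a length offset it was called in KO against WT (log2 fold change 2.17, adjusted p = 0.0299).

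Levels can be set against each other between genes in TPM. In WT the order was SHMT2 (117), MTHFD1 (105), PSAT1 (78.7), MTHFD2 (59.4), PHGDH (55.7), MTHFD1L (50.5), PSPH (44.9), MTHFD2L (17.8), SHMT1 (15.1) and ALDH1L2 (0.0345). PHGDH, whose WT libraries ran from 43.7 to 64.7 TPM, overlapped MTHFD2, MTHFD1L and PSPH, and MTHFD1L overlapped PSPH. In KO the order was MTHFD1 (87.9), SHMT2 (60.3), MTHFD2 (37.2), PSAT1 (36.0), PSPH (36.0), MTHFD2L (27.7 to 30.8), MTHFD1L (25.4) and SHMT1 (6.56), with ALDH1L2 at 0.175 and PHGDH at 0. MTHFD2L in KO thus overlapped MTHFD1L, while it lay far below it in WT. The KO libraries of MTHFD2 (35.1 to 38.8), PSAT1 (35.3 to 36.5) and PSPH (32.9 to 41.0) also overlapped, so their order is not resolved. The TPM ratio of MTHFD1 to MTHFD1L was 2.09 ± 0.217 in WT, 3.53 ± 0.480 in KO, 3.88 ± 0.563 with guanosine, and 2.87 ± 0.103, 3.15 ± 0.158 and 3.22 ± 0.108 with the unlocalised, nuclear and cytosolic form. WT had the lowest ratio, with no overlap with the other 5 groups.

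Against KO, guanosine raised 6 of the 9 enzymes that were above the floor and lowered 1, where 27.3% of all tested genes rose and 29.2% fell, 56.5% in all. The unlocalised form raised 8 of 10 and lowered 1, against 25.7% and 25.1% of all genes, 50.8% together. One of these 8 is PHGDH, on 4 counts against 0 (adjusted p = 0.042), a call lost with DESeq2 (adjusted p = 0.0661) and without any single library but unlocalised replicate 2 (adjusted p = 0.0641 to 0.264). The nuclear form raised 7 of 9 and lowered 1 (26.1% and 26.9% of all genes, 53.0% together), and the cytosolic form raised 7 and lowered 0 (24.6% and 26.0%, 50.6% together). The member medians of the log2 fold change were 0.20, 0.26, 0.31 and 0.33 in this order, beside -0.02 over all tested genes each time. The median with the unlocalised form is over 10 enzymes, PHGDH on 4 counts included, and the others are over 9. These 4 comparisons and that of KO with WT share the KO libraries and are not independent of each other.

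**Figure D4:**
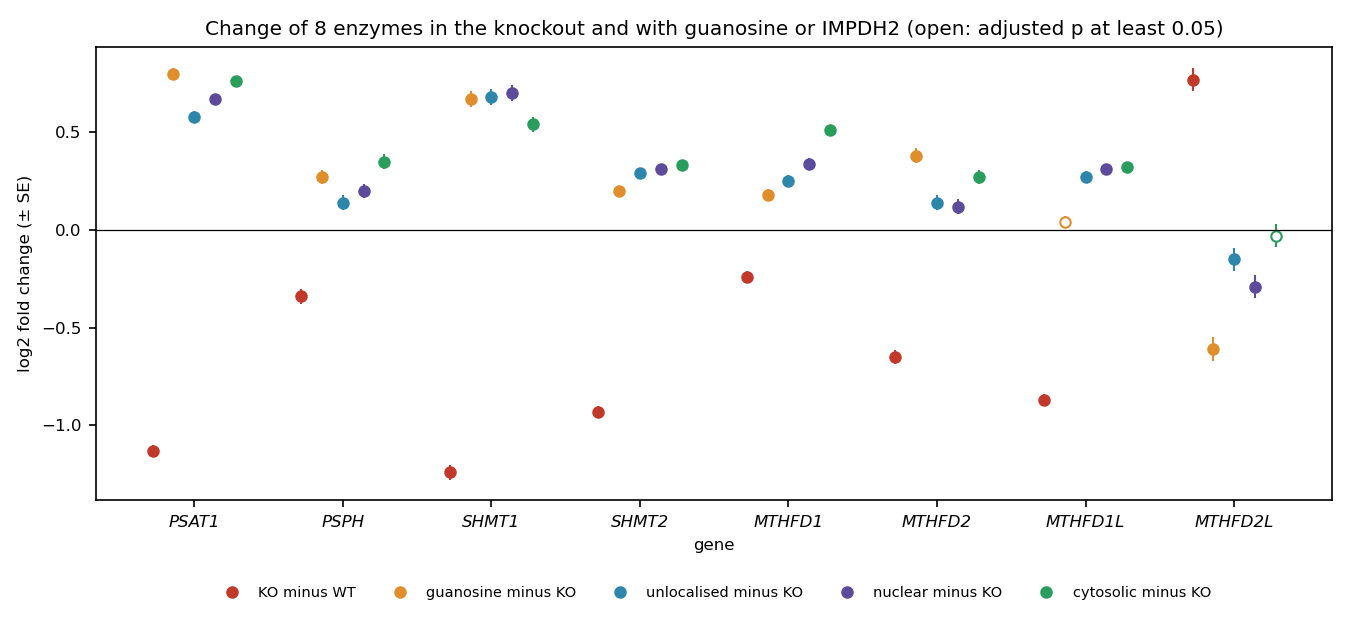
Log2 fold change ± SE (y axis, edgeR) of 8 enzymes in KO against WT and in the other knockout-derived groups against KO; open points have an adjusted p of at least 0.05. PSAT1, SHMT1, SHMT2, PSPH, MTHFD1, MTHFD2 and MTHFD1L are below 0 in KO and above 0 in the other groups, except that MTHFD1L with guanosine is open at 0.04, and MTHFD2L starts at 0.77 in KO.

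The cytosolic and nuclear forms were compared directly. IMPDH2 RNA was itself 1.27-fold higher with the cytosolic form (379 against 297 CPM, adjusted p = 1.33e-07, edgeR). The place of the enzyme, its RNA level and any other difference between these groups cannot be told apart. Of 9 enzymes above the floor 5 were higher and 1 lower with the cytosolic form, against 10.5% and 13.4% of all tested genes, 23.9% together. Higher were MTHFD1 (1.12-fold, adjusted p = 3.64e-04), MTHFD2L (1.19-fold, adjusted p = 0.00422), MTHFD2 (1.11-fold, adjusted p = 0.00527), PSPH (1.11-fold, adjusted p = 0.00567) and PSAT1 (1.07-fold, adjusted p = 0.0162), all by edgeR. SHMT1 was 1.11-fold lower (adjusted p = 0.00647), while SHMT2 and MTHFD1L differed by 0.02 ± 0.027 and 0.00 ± 0.030 on the log2 scale and were not called. All differences were small, and with a length offset MTHFD2L alone stayed called among the 5 that were higher. PSAT1 lost its call without nuclear replicate 3 (adjusted p = 0.0788) or cytosolic replicate 2 (adjusted p = 0.0972).

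Guanosine and the unlocalised form differed in 6 of 10 enzymes, 3 higher and 3 lower with guanosine, against 18.6% and 18.9% of all tested genes, 37.6% together. PHGDH, with 0 against 4 counts, was not called (adjusted p = 0.0677, edgeR) but was without unlocalised replicate 2 (adjusted p = 0.032). PSAT1, PSPH and MTHFD2 were higher by 1.16-, 1.09- and 1.18-fold, and MTHFD2L (1.38-fold), MTHFD1L (1.18-fold) and SHMT2 (1.06-fold) were lower. The call of SHMT2 was lost with a length offset (adjusted p = 0.784), and that of PSPH also without guanosine replicate 3 (adjusted p = 0.0601) or unlocalised replicate 1 (adjusted p = 0.0511). The unlocalised form and WT still differed: 7 of 10 enzymes, PHGDH included, were lower and 1 higher, against 33.4% and 31.1% of all genes, 64.5% together. PHGDH passed the filter through WT alone and so had to differ here too. SHMT2 was 1.56-fold, MTHFD1L 1.52-fold, SHMT1 1.47-fold, PSAT1 1.46-fold and MTHFD2 1.43-fold below WT, and MTHFD2L was 1.54-fold above it. The median over the 10 enzymes, PHGDH included, was -0.53 on the log2 scale, beside 0.00 over all tested genes.

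Genes that supply or use serine moved both ways. Of 11 tested genes 8 fell and 3 rose in KO (6 and 3 with library totals), where 36.8% of all tested genes fell and 35.9% rose, and SDS was not tested. SLC1A4 and SLC1A5, carriers of neutral amino acids that take up serine, fell 3.09-fold and 2.15-fold, and SFXN1, the mitochondrial serine carrier, fell 1.73-fold. All 3 rose over KO with guanosine and with each form, SLC1A4 from 13.6 CPM in KO to 27.4 with guanosine and 16.7 with the cytosolic form. The list as a whole was split against KO. With guanosine 6 of the 11 rose and 5 fell, beside 27.3% and 29.2% of all tested genes. With unlocalised, nuclear and cytosolic IMPDH2 7, 6 and 6 rose, beside 25.7%, 26.1% and 24.6% of all tested genes. In the same order 3, 4 and 4 fell, beside 25.1%, 26.9% and 26.0%. SDSL, a serine dehydratase-like protein, rose 1.99-fold in KO and fell 2.43-fold with guanosine against KO. The list's median log2 fold change was -0.22 in KO against WT and 0.14 in guanosine against KO.

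Of 17 other folate genes 7 rose, 5 fell and 5 were not called in KO (11 higher and 4 lower with library totals), and SLC19A1 was not tested. The share called was near the 72.7% of all tested genes (35.9% higher, 36.8% lower). The list's median was 0.17, beside 0.01 over all tested genes. TYMS, thymidylate synthase, fell 2.57-fold and rose 2.37-fold over KO with guanosine. GGH, which trims the glutamate tail of folates, fell 1.52-fold in KO. ATIC, which uses formyl folate in purine synthesis, rose 1.32-fold in KO and fell in the 4 other knockout-derived groups against KO, by 1.43-fold with guanosine. SLC46A1, the proton-coupled folate transporter, rose 1.13-fold in KO and 1.56-fold over KO with guanosine.

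Of the 4 glycine cleavage genes AMT (1.64-fold) and GCSH (1.15-fold) rose, DLD (1.25-fold) fell, and GLDC, the decarboxylase, was not called and lay at 0.364 CPM in KO, where 35.9% of all tested genes rose and 36.8% fell. Of 6 tested genes of the methionine cycle and transsulfuration 3 fell, beside 36.8% of all tested genes, and 3 were not called in KO (3 lower and 2 higher with library totals), and BHMT, BHMT2 and CBS were not tested. MAT2A, which makes S-adenosylmethionine, fell 1.75-fold, AHCYL1 1.67-fold and CTH 1.67-fold. AHCY, which clears S-adenosylhomocysteine, was not called in KO (adjusted p = 0.898, edgeR) and rose over KO in the 4 other groups, by 1.24- to 1.40-fold.

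ATF4, a transcription factor known to drive PHGDH, PSAT1, SHMT2 and MTHFD2, and its other targets did not move one way. Of 12 tested genes 8 fell and 4 rose in KO, with a median of -0.60, where 36.8% of all tested genes fell and 35.9% rose. ATF4 itself fell 1.49-fold. Against KO it was lower still with unlocalised, nuclear and cytosolic IMPDH2, by log2 fold changes of -0.37, -0.32 and -0.22. With guanosine ATF4 was not called against KO (log2 fold change 0.05, adjusted p = 0.13, edgeR). PSAT1, SHMT2 and MTHFD2 were called higher than KO in these 4 groups, where 24.6% to 27.3% of all tested genes rose. The MTHFD2 calls with the unlocalised and nuclear form were lost with a length offset or library totals. With the cytosolic against the nuclear form 7 of the 12 genes were higher and 1 lower, beside 10.5% and 13.4% of all tested genes. ATF4 (adjusted p = 0.00788, edgeR), PSAT1 and MTHFD2 were higher there, and SHMT2 was not called. With a length offset PSAT1 and MTHFD2 lost that call. The part of ATF4 in these changes was not tested. In KO against WT, ASNS, asparagine synthetase, fell 2.52-fold and DDIT4, an inhibitor of mTORC1, fell 5.23-fold. DDIT3, a stress-induced transcription factor, rose by 1.58 ± 0.060 on the log2 scale. SLC3A2, the heavy chain of amino acid exchangers, rose 1.11-fold, while its partner SLC7A5 fell 1.60-fold. With the cytosolic form ASNS stood 1.93-fold and SLC7A5 1.62-fold above KO, while DDIT4 was at 37.5 CPM against 36.4 in KO and was not called (adjusted p = 0.623, edgeR). With guanosine 4 of the 12 rose and 6 fell against KO, beside 27.3% and 29.2% of all tested genes, and the median was -0.12.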

How the data were processed

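The deposited files held Salmon output, in which the authors' estimated counts, TPM and effective lengths of 252048 transcripts are given per library, per the file headers. The submitters' processing notes name Trim Galore 0.6.10 for trimming, Salmon 1.10.0 for quantification and the genome build hg19. Per the labels, 500 ng of total RNA entered stranded mRNA libraries. Symbols are those of the files. Positions come from GENCODE 29 (GRCh38), which differs from the authors' build and is used for place and biotype only.

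Gene values are sums of the deposited estimated counts of a gene's transcripts, rounded because 32.5% of those were not whole numbers, and sums of the deposited TPM values. CPM was computed with TMM scaling. After filterByExpr, 18 libraries entered 1 edgeR 4.0.16 fit (R 4.3.3) with 1 coefficient for each group and the quasi-likelihood test, and p-values were adjusted (Benjamini-Hochberg) over 19252 genes in each of 8 comparisons. The script was tested on simulated data. Alternatives were DESeq2 1.42.0, its size factors (RLE), no filter, a replicate block, a length offset from the deposited effective lengths, the 6 compared libraries alone, each library left out and, added after seeing the data, library totals without TMM.

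Members, lists and the rule for named genes were chosen with earlier results of these data known. Named were all members, their likest genes (3 each for PHGDH, PSAT1 and MTHFD2), the 5 nearest protein-coding genes on each side of PHGDH, and in each of 6 other lists up to 3 genes with the smallest adjusted p in KO against WT and up to 3 in guanosine against KO. GLDC and ATF4 were added after their values were seen. Some genes taken by this rule are left out of the text. Intervals and floors cover counting error only, as the reads carried no molecular identifiers.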

Additional observations from a re-analysis of the deposited data

How the results depend on the processing

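No member's called change reversed its direction. Of 986 member values under the alternatives, 939 stayed on the same side of the threshold (called or not), 44 lost a call and 3 gained one, and the length offset accounted for 16 of the losses among its 76 values. Counts of enzymes called moved by more than 1.5 times as follows. With the length offset 2 rose in KO against WT, 5 rose with the unlocalised form against KO, and 1 was higher with the cytosolic than with the nuclear form. Smaller moves with that offset were 7 enzymes lower in KO, 5, 5 and 6 higher than KO with guanosine, nuclear and cytosolic IMPDH2, 6 lower with the unlocalised form than in WT, and 2 higher and 2 lower with guanosine than with the unlocalised form. The enzymes that fell with the unlocalised form against KO numbered 0 with RLE size factors, without a filter, with DESeq2 and with the length offset, and 0 to 1 with 1 library left out. With library totals 2 enzymes were higher with the unlocalised form than in WT. Over all tested genes, the length offset called 1835 between the cytosolic and nuclear forms instead of 4600, and 4183 between guanosine and the unlocalised form instead of 7230. TMM in place of library totals moved the median of all genes by -0.161 on the log2 scale in KO against WT, so falls in KO are relative to that shift. Against KO, rises made up 48.3%, 50.6%, 49.3% and 48.6% of all calls with guanosine and the 3 forms, and 38.5%, 35.3%, 35.0% and 32.2% with library totals.

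The replicate numbers did not pair the libraries: over genes, deviations from the group means of same-numbered libraries correlated between -0.09 and 0.14. A fit with the replicate number as a block left 74 of 76 member values on the same side of the threshold. It lost PHGDH (adjusted p = 0.0751) and MTHFD2L (adjusted p = 0.0591, edgeR) in the unlocalised form against KO, so that 0 enzymes were called lower there.

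Depth limits ALDH1L2, with at most 53 counts in a group, and PHGDH outside WT. The other enzymes had at least 1886 counts in each group.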
